A study of Homo sapiens with 9 samples.

Results

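The AP-1 family of transcription factors was followed in OCI-Ly1 cells, an established human line from diffuse large B-cell lymphoma, through the rows of 9 genes among the 25370 gene symbols of the count table. The members, fixed by name, were JUN, JUNB and JUND, then FOS, FOSB, FOSL1 and FOSL2, then BATF and BATF3. For 48 h the cells received vehicle (DMSO), JIB-04 at 150 nM or JIB-04 at 500 nM, and each condition has 3 libraries of total RNA depleted of ribosomal RNA. JIB-04 inhibits histone demethylases of the Jumonji family, among them KDM4A and KDM4C, the enzymes named in the study's title. The labels give no genetic change in any group, and all 9 libraries come from the same line, so no other lymphoma is represented. Whether replicates were grown as separate cultures is not stated in the labels, and p-values therefore measure only how these libraries vary, which may be technical.

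AP-1 is a dimer of basic leucine zipper proteins. A JUN protein can pair with another JUN protein or with a FOS protein, whereas FOS proteins need a JUN partner to bind DNA. BATF and BATF3 lack a transactivation domain and pair with JUN proteins, and in lymphocytes BATF-JUN dimers bind composite sites together with IRF4 or IRF8. JUN and FOS are the classic immediate-early genes, transcribed within minutes of growth factor, antigen receptor or stress signals that act through MAP kinases. Their messages are short-lived, so a level at 48 h is not the early peak for which they are known.

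The libraries held 28476845 to 57198613 counts, and 15089 genes passed the low-count filter and were tested. The germinal-centre B-cell markers MS4A1, CD79A, CD79B, PAX5, BCL6 and MME were expressed, with summed levels over these 6 genes of 1610 to 1670 CPM (counts relative to library size, scaled by TMM) at 500 nM and 1960 to 2010 CPM in DMSO. The 14 markers of other cell types summed to 8.55 to 9.94 CPM at 500 nM and to 17.6 to 19 CPM in DMSO, where HBB had no count at 500 nM and HBB, FCGR3A and COL1A1 had none in DMSO. Their part in the AP-1 differences was not tested. Calls rest on edgeR's quasi-likelihood test, with an adjusted p (Benjamini-Hochberg, over all tested genes) under 0.05. At 500 nM against DMSO 3975 genes were called higher and 3868 lower. With libraries scaled by total counts alone those numbers were 5716 and 2514, and the median log2 fold change of all genes was 0.15 instead of 0.01. In bulk RNA, fewer cells with a transcript and less of it per cell cannot be told apart.

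Promoter sequences from RefSeq (build GRCh38.p14) were matched by symbol for 7 of the 9 members. BATF3 and FOSL1 had no match, so the motif counts below do not cover them. The 3 windows that hold a full AP-1 or cyclic AMP response element (CRE) motif are shown, since these are sites that AP-1 and its relatives are known to bind. Each runs 5′ to 3′ on the gene's strand, from 250 bases before the annotated start to 20 bases after it, with the motif in capitals. Both strands of windows reaching 50 bases past the start were searched for TGACTCA, the consensus AP-1 site, for TGACATCA, the variant through which JUN is known to regulate its own promoter, and for TGACGTCA, the CRE. The JUN window (chr1:58784028-58784297, minus strand) has TGACATCA at position -67 relative to the start. The JUND window (chr19:18281603-18281872, minus strand) has TGACGTCA at position -200. The FOSL2 window (chr2:28392608-28392877, plus strand) has TGACTCA at base 5 of the transcript. These 3 matches share no bases with a match of another motif named here.
JUN: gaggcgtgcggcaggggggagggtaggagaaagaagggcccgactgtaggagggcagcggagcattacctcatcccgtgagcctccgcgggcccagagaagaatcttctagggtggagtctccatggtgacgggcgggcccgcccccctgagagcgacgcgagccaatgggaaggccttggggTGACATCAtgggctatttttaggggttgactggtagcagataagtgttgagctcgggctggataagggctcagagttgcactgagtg
JUND: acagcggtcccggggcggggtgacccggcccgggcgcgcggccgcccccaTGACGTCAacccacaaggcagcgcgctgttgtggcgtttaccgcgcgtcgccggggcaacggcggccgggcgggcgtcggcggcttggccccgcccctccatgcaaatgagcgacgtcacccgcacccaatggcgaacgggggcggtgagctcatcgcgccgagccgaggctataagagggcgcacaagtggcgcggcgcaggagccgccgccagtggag
FOSL2: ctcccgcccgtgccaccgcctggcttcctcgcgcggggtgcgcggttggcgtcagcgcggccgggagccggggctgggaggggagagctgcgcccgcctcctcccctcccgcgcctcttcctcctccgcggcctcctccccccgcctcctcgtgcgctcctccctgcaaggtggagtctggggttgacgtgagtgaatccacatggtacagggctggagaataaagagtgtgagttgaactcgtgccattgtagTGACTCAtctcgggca
Of 35116 annotated promoter windows, 4.95% held TGACTCA, 2.61% TGACATCA and 1.85% TGACGTCA, so each motif is uncommon, and each was found in 1 of the 7 member windows. None of the 7 held TGATGNAA, the core of sites bound by ATF4, which 3.62% of all windows held, or a serum response (CArG) box, which 1.29% held. Sites more than 250 bases before the start lie outside these windows and were not searched. Whether FOS or another member has such a site there is therefore not shown. The CCAAT box (CCAAT) stood in the JUN, JUNB and JUND windows and in 34.6% of all windows. The GC box (GGGCGG) stood in 6 of the 7 windows, all but that of JUNB, and in 45% of all windows.

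The first comparison asked how the family changed at 500 nM JIB-04 against DMSO. Of the 9 members, 8 rose and 1, FOSL1, was not called, while 26.3% of all tested genes were called higher and 25.6% lower. By at least 2-fold 7 members rose, against 7.33% of tested genes, and by at least 4-fold 4 members rose, against 2.94%. The 3 libraries at 500 nM lay above all 3 DMSO libraries for 8 members, which held for 30.2% of tested genes, with 29% the other way. The median log2 fold change was 1.87 over the 9 members and 0.01 over all tested genes. FOS and FOSL2 passed the filter on low counts only through the 500 nM libraries, so they had to differ to be tested. Of the other 7 members 6 rose, 5 by at least 2-fold and 2 by at least 4-fold, 6 did not overlap, and the median log2 fold change was 1.70. All 8 calls held in each alternative that tested the gene.

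**Figure D1:**
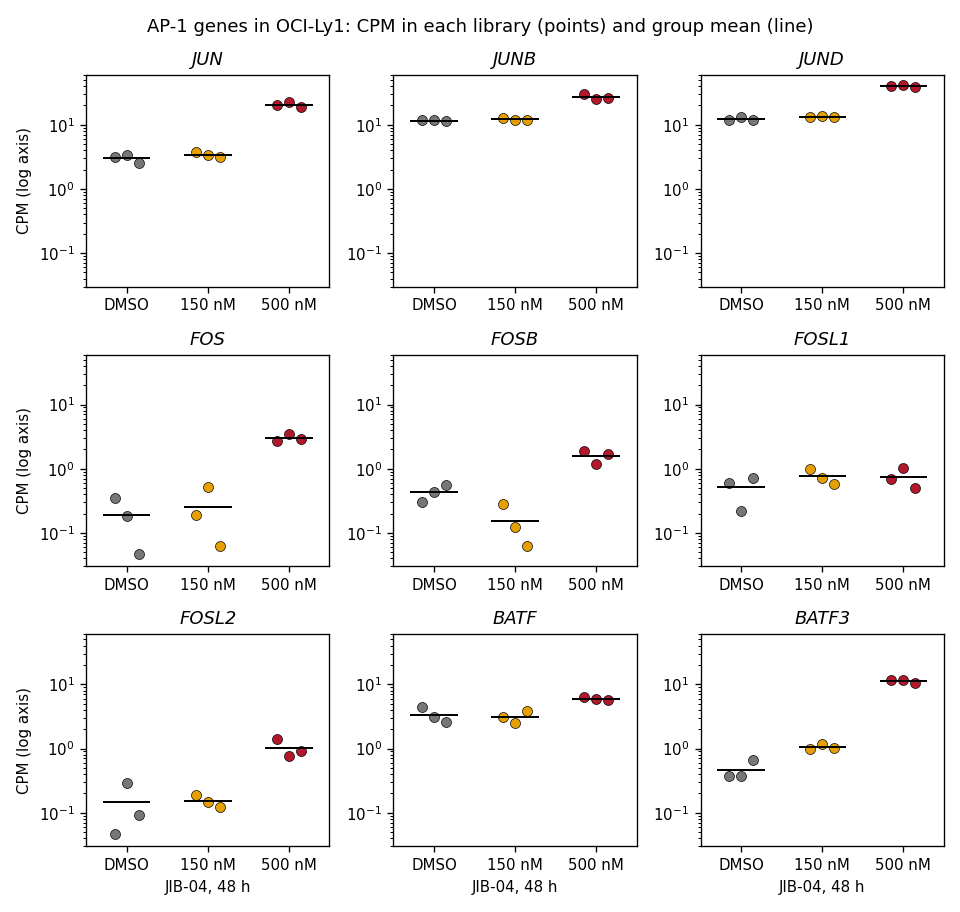
CPM of each AP-1 gene (log axis) in each of the 9 libraries, with DMSO, 150 nM and 500 nM JIB-04 from left to right; points are libraries and the line is the group mean. For 8 genes the 500 nM points lie above all others, and for FOSL1 the 3 groups overlap.

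JUN proteins are the usual partners of FOS and BATF proteins. JUN, the founding member and a target of the JNK kinases, had 3.11, 3.37 and 2.5 CPM in the 3 DMSO libraries, 3.74, 3.34 and 3.12 CPM at 150 nM and 19.99, 22.4 and 19.1 CPM at 500 nM. The 500 nM libraries stood apart from the other 6, which overlapped between DMSO and 150 nM. Against DMSO, JUN rose at 500 nM by 2.79 on the log2 scale, with an SE of 0.14 (3 libraries per group, adjusted p = 4.91e-16 by edgeR), a fold of 6.90. JUND, which in many cell types is present without stimulation, had 11.8, 13.2 and 11.7 CPM in DMSO, 13.2, 13.6 and 13.1 CPM at 150 nM and 39.8, 41.5 and 38.1 CPM at 500 nM. Its log2 fold change at 500 nM against DMSO was 1.70 ± 0.09 (adjusted p = 1.83e-15 by edgeR). JUNB, which can oppose JUN at some promoters, had 11.8, 11.7 and 11.4 CPM in DMSO, 12.6, 11.9 and 12.0 CPM at 150 nM and 30.6, 25.4 and 26.4 CPM at 500 nM. JUNB, which overlaps HOOK2 on the opposite strand, rose least of the 3, by 1.24 ± 0.10 (adjusted p = 1.58e-11 by edgeR).

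The 95% intervals of these 3 log2 fold changes at 500 nM against DMSO, 2.51 to 3.07 for JUN, 1.52 to 1.88 for JUND and 1.04 to 1.44 for JUNB, did not overlap. The difference in log2 CPM between JUN and JUNB within a library ran from -0.61 to -0.18 at 500 nM and from -2.16 to -1.78 in DMSO. The difference between JUNB and JUND ran from -0.71 to -0.38 at 500 nM and from -0.18 to -0.00282 in DMSO. Each of these pairs of ranges is separate, but an exact permutation test of 3 against 3 libraries cannot go below p = 0.1 (two-sided), so none was made. The JUNB and JUND transcripts are rich in G and C, at 64.9% and 69.7%, and tested genes with a GC content above 60% had a median log2 fold change of 0.20 at 500 nM against DMSO. With each library's trend on GC content removed, the changes were 2.75 for JUN, 1.36 for JUND and 1.04 for JUNB, and all 3 were still called. JUND and JUNB lay closer together there than in the main fit (1.70 and 1.24). Whether their intervals stay apart in that fit was not examined.

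FOS proteins form DNA-binding dimers only with a JUN partner, and their genes were expressed at low levels in this line. FOS, the prototype immediate-early gene, had 15, 5 and 2 counts in the DMSO libraries, 8, 21 and 2 at 150 nM and 161, 157 and 157 at 500 nM. In CPM these were 0.348, 0.183 and 0.0468 in DMSO, 0.187, 0.515 and 0.0619 at 150 nM and 2.67, 3.48 and 2.93 at 500 nM. The lowest 500 nM library had 5.19 times the CPM of the highest other library, and DMSO and 150 nM overlapped. At 500 nM against DMSO, FOS rose by 3.94 on the log2 scale, with an SE of 0.47 (adjusted p = 9.83e-08 by edgeR), and 4.85 without DMSO replicate 1. FOS and FOSL2 were tested only because their 500 nM libraries passed the low-count filter, so their p-values and gaps are not independent evidence of a rise. FOSL2, which encodes FRA-2, had 2, 8 and 4 counts in DMSO, 8, 6 and 4 at 150 nM and 84, 35 and 49 at 500 nM. Its log2 fold change was 2.97 ± 0.58 at 500 nM against DMSO (adjusted p = 8.95e-05 by edgeR), and 3.83 without DMSO replicate 2. FOSB, the closest FOS paralog, had 13, 12 and 24 counts in DMSO, 12, 5 and 2 at 150 nM and 113, 53 and 92 at 500 nM. FOSB rose by 1.87 ± 0.41 at 500 nM against DMSO (adjusted p = 0.000389 by edgeR). It overlaps ERCC1 on the opposite strand, and whether counting used strand is not known.

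FOSL1, which encodes FRA-1, a component of AP-1 in many invasive carcinomas, was the one FOS gene that was not called. It had 26, 6 and 31 counts in DMSO, 42, 29 and 19 at 150 nM and 41, 46 and 27 at 500 nM, which is 0.603, 0.220 and 0.726 CPM in DMSO, 0.983, 0.711 and 0.588 CPM at 150 nM and 0.680, 1.02 and 0.504 CPM at 500 nM. The 3 groups overlapped. The log2 fold change at 500 nM against DMSO was 0.45 ± 0.45 (95% interval -0.47 to 1.38, adjusted p = 0.418 by edgeR). That interval includes a 2-fold rise, and the DMSO libraries ranged from 6 to 31 counts.

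BATF proteins compete with FOS for JUN partners and, with IRF4, direct immunoglobulin class switching and T helper differentiation. BATF3 is best known for the development of cross-presenting dendritic cells, and in Hodgkin and anaplastic large-cell lymphoma it is highly expressed. Here BATF3 had the largest log2 fold change of the 9 members with all libraries, but its 95% interval (4.12 to 4.99) overlaps that of FOS (2.97 to 4.92), and without DMSO replicate 1 FOS (4.85) came before BATF3 (4.38). It had 0.371, 0.367 and 0.656 CPM in DMSO, 0.983, 1.18 and 1.02 CPM at 150 nM and 11.5, 11.7 and 10.5 CPM at 500 nM. The 3 groups did not overlap. BATF3 rose at 500 nM against DMSO by 4.55 on the log2 scale, with an SE of 0.21 (adjusted p = 1.66e-16 by edgeR), a fold of 23.5, and 0.557% of tested genes had a larger log2 fold change. BATF had 4.47, 3.04 and 2.55 CPM in DMSO, 3.07, 2.48 and 3.83 CPM at 150 nM and 6.39, 5.97 and 5.60 CPM at 500 nM. It rose by 0.83 ± 0.19 (adjusted p = 0.000648 by edgeR), the smallest change among the called members. The 95% interval of BATF (0.43 to 1.22) overlaps that of JUNB (1.04 to 1.44), so this rank is not settled. Within a library BATF minus BATF3 in log2 CPM ran from -0.96 to -0.84 at 500 nM and from 1.89 to 3.44 in DMSO.

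**Figure D2:**
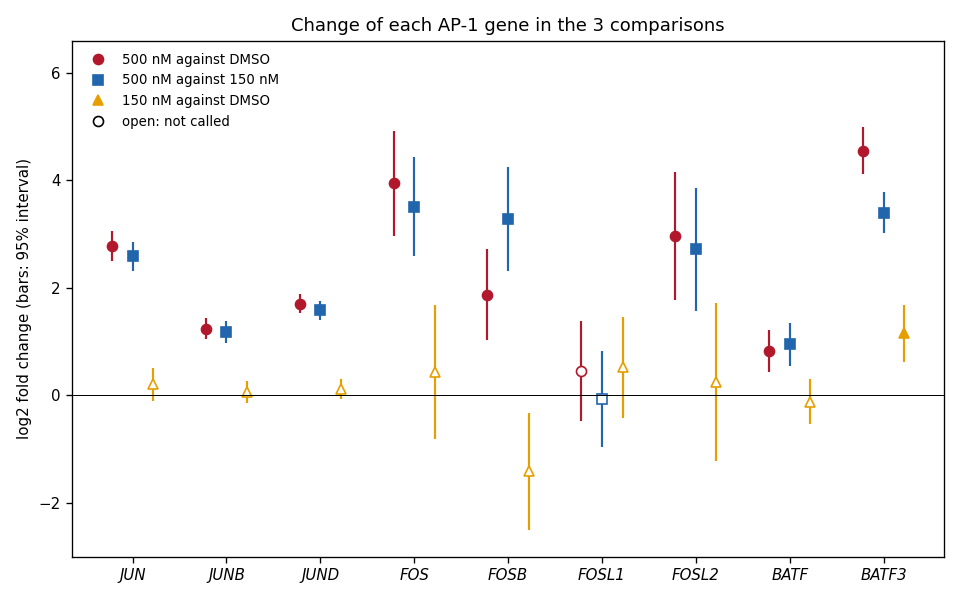
Log2 fold change of each AP-1 gene with its 95% interval, for 500 nM against DMSO (circles), 500 nM against 150 nM (squares) and 150 nM against DMSO (triangles); filled symbols were called and open ones were not. BATF3 (4.55) and FOS (3.94), whose intervals overlap, lead at 500 nM against DMSO, and at 150 nM against DMSO BATF3 (1.16) is the one filled triangle.

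The second comparison asked which members had already changed at 150 nM. BATF3 rose, by 1.16 on the log2 scale against DMSO, with an SE of 0.26 (adjusted p = 0.0157 by edgeR), and the other 8 members were not called, while 0.954% of tested genes were called higher, 0.318% lower and 1.27% in either direction. The BATF3 call was lost without DMSO replicate 1 (0.98, adjusted p = 0.123), DMSO replicate 2 (1.05, 0.0941) or 150 nM replicate 2 (1.07, 0.118), in a fit of the 6 libraries compared (1.17, 0.275) and by limma-voom (1.19, 0.253). Across all alternatives its log2 fold change lay between 0.98 and 1.52. The largest difference downwards was that of FOSB, at 0.281, 0.123 and 0.0619 CPM at 150 nM and 0.301, 0.440 and 0.562 CPM in DMSO. The FOSB libraries did not overlap, which held for 7.32% of tested genes in this direction, but the difference rested on 19 counts over 3 libraries at 150 nM and 49 in DMSO and was not called (-1.41 ± 0.53, adjusted p = 0.28 by edgeR).

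The JUN genes differed little at 150 nM, with log2 fold changes against DMSO of 0.20 for JUN (95% interval -0.11 to 0.51), 0.07 for JUNB (-0.14 to 0.27) and 0.12 for JUND (-0.07 to 0.31). None was called, and each interval excludes a 1.5-fold rise. BATF had -0.12 (95% interval -0.53 to 0.30). The wider intervals of FOS (-0.81 to 1.68), FOSL1 (-0.42 to 1.46) and FOSL2 (-1.22 to 1.72) include a 2-fold rise. Libraries at 150 nM lay above all DMSO libraries for 2 members, JUNB and BATF3, which held for 6.41% of tested genes.

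The third comparison set 500 nM against 150 nM. It shares the 500 nM libraries with the first comparison, and the first and second share the DMSO libraries, so the 3 sets of values are not independent. Of the 9 members 8 rose and FOSL1 was not called (-0.07 ± 0.44, adjusted p = 0.917 by edgeR), while 23.7% of tested genes were called higher and 22.8% lower. By at least 2-fold 7 members rose, against 5.82% of tested genes, and by at least 4-fold 5 members, against 1.99%. The groups did not overlap for the 8 called members, which held upwards for 29% of tested genes. Without FOS and FOSL2, 6 of 7 members rose, 5 by at least 2-fold and 3 by at least 4-fold. FOS rose by 3.50 ± 0.45 on the log2 scale, BATF3 by 3.40 ± 0.19, FOSB by 3.28 ± 0.47 and FOSL2 by 2.72 ± 0.56. The change of FOS was 4.49 without 150 nM replicate 2, and that of FOSB 4.03 without 150 nM replicate 1. JUN rose by 2.59 ± 0.13, JUND by 1.58 ± 0.09, JUNB by 1.18 ± 0.10 and BATF by 0.95 ± 0.19 (adjusted p at most 0.000194 by edgeR for all 8).

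Levels were compared between genes as CPM per kilobase of the longest GENCODE transcript. At 500 nM the order was JUND (21.4 ± 0.89, SD, n = 3), JUNB (15.1 ± 1.52), BATF (6.11 ± 0.40), JUN (5.79 ± 0.48), BATF3 (4.76 ± 0.27), FOS (1.4 ± 0.19), FOSL1 (0.440 ± 0.157), FOSB (0.421 ± 0.097) and FOSL2 (0.153 ± 0.048). There BATF and JUN overlapped, and so did FOSL1 and FOSB, so these neighbours are not ordered. In DMSO the order was JUND (6.58 ± 0.45), JUNB (6.38 ± 0.13), BATF (3.42 ± 1.02), JUN (0.846 ± 0.126), FOSL1 (0.309 ± 0.158), BATF3 (0.197 ± 0.0702), FOSB (0.115 ± 0.0345), FOS (0.0892 ± 0.0698) and FOSL2 (0.0215 ± 0.0195). The libraries of JUND and JUNB overlapped, as did those of FOSL1 and BATF3, of FOSB and FOS and of FOS and FOSL2. Some of these overlaps depend on the length used. With the mean length of a gene's transcripts, JUND (9.93 to 11.2) lay above JUNB (6.24 to 6.48) in DMSO. With that length BATF (8.585 to 9.785) lay above JUN (5.40 to 6.33) at 500 nM. Other genes came to overlap with it, so their order is not settled either. BATF (3.91 to 6.855) then overlapped JUNB in DMSO. At 500 nM BATF overlapped BATF3 (7.989 to 8.884), which lay above JUN. FOSL1 came after FOS at 500 nM, and had the highest mean of the FOS genes in DMSO. At 150 nM the means ran from 7.13 ± 0.14 for JUND to 0.0228 ± 0.0048 for FOSL2, and the first 6 genes came in the same order as in DMSO.

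Summed over the 9 members, the level per kilobase was 18.0 ± 1.15 in DMSO, 19.0 ± 0.49 at 150 nM and 55.5 ± 2.47 at 500 nM (SD, n = 3 each). JUN, JUNB and JUND together made up 76.1% ± 0.41 of the family at 500 nM and 77.0% ± 4.36 in DMSO, a difference smaller than the spread between DMSO libraries. BATF and BATF3 made up 19.6% ± 0.27 at 500 nM and 20% ± 4.18 in DMSO, which is again within that spread. The 4 FOS genes made up 4.36% ± 0.33 at 500 nM and 2.99% ± 0.83 in DMSO, with no overlap between libraries. Among these 4 the largest gain was that of FOS, given below. FOSL1 made up 0.789% at 500 nM and 1.74% in DMSO, FOSB 0.760% and 0.650%, and FOSL2 0.275% and 0.120%. FOS and FOSL2 passed the low-count filter only through the 500 nM libraries. Single genes took other shares, and in the following 5 the libraries at 500 nM and in DMSO did not overlap. BATF3 made up 8.57% ± 0.21 of the family at 500 nM and 1.12% ± 0.47 in DMSO. JUN made up 10.4% ± 0.74 at 500 nM and 4.70% ± 0.52 in DMSO. BATF made up 11% ± 0.28 at 500 nM and 18.9% ± 4.48 in DMSO. JUNB made up 27.2% ± 2.2 at 500 nM and 35.6% ± 1.61 in DMSO. FOS made up 2.53% ± 0.36 at 500 nM and 0.482% ± 0.358 in DMSO. With the mean length of a gene's transcripts in place of the longest, BATF3 (11.1%) came before JUN (7.54%) at 500 nM. Such shares describe transcripts and not protein or dimers.

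**Figure D3:**
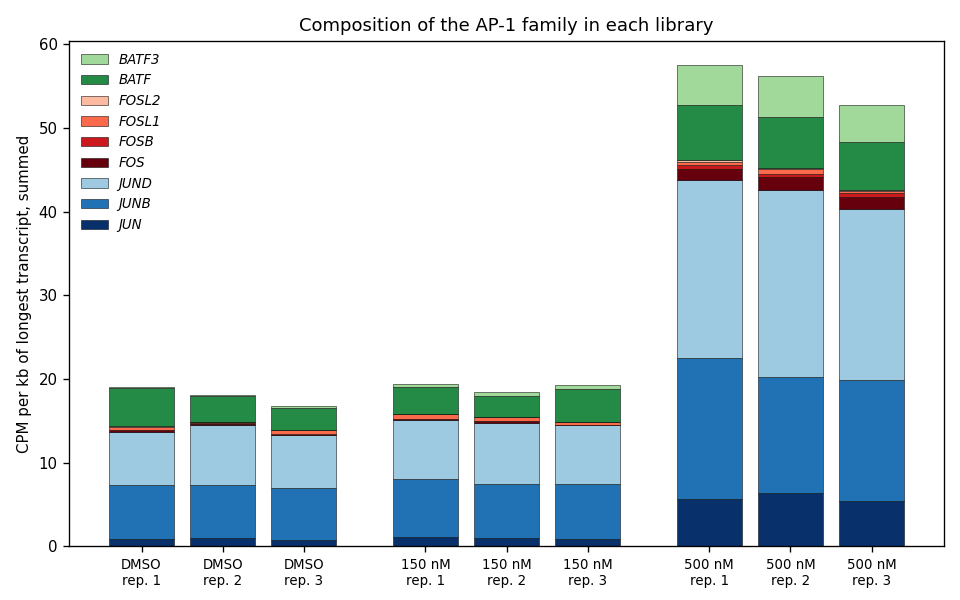
Summed level of the 9 AP-1 genes in each library, in CPM per kilobase of the longest transcript, stacked by gene from JUN at the bottom to BATF3 at the top. The bars average 55.5 at 500 nM and 18.0 in DMSO, and JUN, JUNB and JUND (blue) fill 76.1% and 77.0% of them.

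AP-1 proteins also pair with related basic leucine zipper proteins, and a list of such partners was examined. Of the 14 that passed the low-count filter without the 500 nM libraries, 9 rose at 500 nM against DMSO, 1 fell and 4 were not called, where 26.3% of all tested genes were called higher and 25.6% lower, and the median over the 14 was 0.31 (log2). ATF3, a stress-induced partner of JUN proteins, had 35.2, 28.5 and 26.2 CPM at 500 nM and 0.464, 0.257 and 0.656 CPM in DMSO, with no overlap. It rose by 5.95 on the log2 scale, with an SE of 0.19 (adjusted p = 4.71e-20 by edgeR), more than any AP-1 member. ATF3 was also higher at 150 nM, at 3.16, 2.62 and 2.44 CPM (2.51 ± 0.23 against DMSO, adjusted p = 2.94e-08 by edgeR). DDIT3, which encodes the stress factor CHOP, rose by 2.91 ± 0.11 at 500 nM, NFE2L1, a regulator of proteasome genes, by 1.69 ± 0.05, and ATF4, the main factor of the integrated stress response, by 0.59 ± 0.04. ATF2, a JUN partner at CRE sites, rose by 0.43 ± 0.06 and JDP2, a repressor that pairs with JUN, by 0.28 ± 0.06. ATF7, a relative of ATF2, had 8.34 ± 0.84 CPM at 500 nM and 7.90 ± 0.36 CPM in DMSO (SD, n = 3 each) and was not called. MAFK, a small MAF protein, fell by 0.55 on the log2 scale (SE 0.11). At 150 nM 4 of the 14 rose, where 0.954% of all tested genes did: ATF3, DDIT3 (0.69 ± 0.11), NFE2L1 (0.36 ± 0.05) and BACH2 (0.20 ± 0.05), a repressor in B cells that was named after its values were seen. The BACH2 call at 150 nM was lost without any 1 of 6 libraries (adjusted p = 0.0564 to 0.18) and in the fit of 6 libraries (0.103).

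The 2 IRF partners of BATF moved in opposite directions. IRF4, a factor of activated B cells and plasma cells, had 462, 456 and 436 CPM at 500 nM and 263, 243 and 231 CPM in DMSO, and rose by 0.88 ± 0.05 on the log2 scale (adjusted p = 5.87e-14 by edgeR). IRF8, a factor of germinal-centre B cells, had 106, 98.8 and 101 CPM at 500 nM and 126, 124 and 127 CPM in DMSO, and its log2 fold change was -0.30 ± 0.05 (adjusted p = 4.81e-05 by edgeR). At 150 nM edgeR called neither (IRF8 had -0.19 ± 0.06, adjusted p = 0.102), 1 had an unadjusted p under 0.05, and DESeq2 called 1 and limma-voom 0.

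Genes of the MAP kinase cascades that signal to AP-1 were mixed at 500 nM against DMSO. Of 29 tested, 8 rose, 7 fell and 14 were not called, and the median was -0.02 (log2), so 51.7% were called where 52% of all tested genes were. MAP2K6, a kinase of p38, rose by 0.995 ± 0.088, RPS6KA5, which encodes the histone kinase MSK1, by 0.68 ± 0.09, MAPK11, a p38 isoform, by 0.58 ± 0.10 and BRAF by 0.53 ± 0.07. MAP2K3, another p38 kinase, fell, with a log2 fold change of -0.66 ± 0.11. MAPK8, which encodes JNK1, had 32.8 CPM at 500 nM and 32.4 CPM in DMSO and was not called. The other JNK genes, named after their values were seen, were called lower, MAPK9 (-0.19 ± 0.06) and MAPK10 (-1.175 ± 0.344). MAPK10 was low, at 0.617 CPM at 500 nM and 1.38 CPM in DMSO. Alternative fits of MAPK9 and MAPK10 are not reported here. Transcript levels do not show kinase activity.

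Of 13 tested factors that act on the FOS and JUN promoters, 3 rose and 5 fell, so 61.5% were called where 52% of all tested genes were. SRF, which binds the serum response element of FOS, had 49.2 ± 2.70 CPM at 500 nM and 63.4 ± 3.41 CPM in DMSO (SD, n = 3 each) and fell by 0.37 on the log2 scale. MEF2D (-0.49 ± 0.09), MEF2C (-0.24 ± 0.06) and ELK4 (-0.21 ± 0.06) fell too, though with total-count scaling MEF2C (-0.10) and ELK4 (-0.07) were not called, nor was ELK4 without 500 nM replicate 2 (-0.16, adjusted p = 0.0596). The fifth, CREB1 (-0.18 ± 0.07), was not called with total-count scaling (-0.04) or without DMSO replicate 3 (-0.12), 500 nM replicate 1 (-0.18) or 500 nM replicate 2 (-0.17), at adjusted p = 0.0659 to 0.586. MEF2A (0.44 ± 0.06), CREM (0.46 ± 0.09) and the SRF cofactor gene ELK3 (1.73 ± 0.29) rose. CREB1 and CREM, which bind the CRE, were named after their values were seen. Of 8 genes of AP-1 turnover and co-regulation 37.5% were called. Among them FBXW7, a ubiquitin ligase subunit that targets JUN, rose by 0.26 ± 0.07. COPS5, a JUN coactivator, rose by 0.18 ± 0.05, a call lost without 500 nM replicate 1 (adjusted p = 0.0547), and NACA, another JUN coactivator, fell (-0.42 ± 0.05). The other 5 were not called. At 150 nM edgeR called 0 of these 50 genes, where it called 1.27% of all tested genes, so 0 is near that share. Of the 50 genes 4 had an unadjusted p under 0.05, and DESeq2 and limma-voom also called 0.

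**Figure D4:**
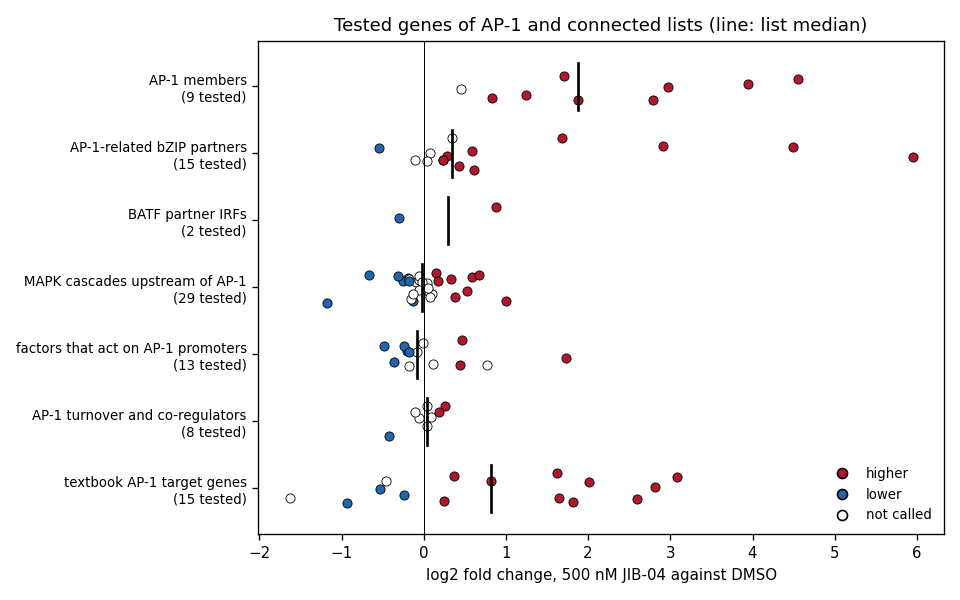
Log2 fold change at 500 nM against DMSO of each tested gene of 7 lists, from the AP-1 members at the top to known AP-1 targets at the bottom; colours show the call and the black line the list median. The median is 1.87 for the AP-1 members and between -0.09 and 0.81 for the other lists; without genes that passed the low-count filter only through the 500 nM libraries it is 1.70 for the members and 0.59 for the AP-1 targets.

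Genes known in other systems as AP-1 targets gave 15 tested of 32, since 17 were too low to test in this line. Of the 14 that passed the filter without the 500 nM libraries, 9 rose, 3 fell and 2 were not called at 500 nM against DMSO, where 26.3% of all tested genes were called higher and 25.6% lower. The median over the 14 was 0.59 (log2). The growth factor gene VEGFA had 49.1 ± 5.25 CPM at 500 nM and 7.01 ± 1.86 CPM in DMSO (SD, n = 3 each), a log2 fold change of 2.82 ± 0.14. The metallothionein gene MT2A rose by 3.09 ± 0.24, DUSP1, a phosphatase that switches off MAP kinases, by 2.01 ± 0.28 and PLAU, the urokinase gene, by 2.59 ± 0.52. PLAU is not among the 14, since it passed only through the 500 nM libraries, and MT2A has near-identical family members whose reads the counting could split. The 3 that fell were HBEGF, a growth factor gene named after its values were seen (-0.94 ± 0.18), GSTP1, a glutathione transferase (-0.53 ± 0.06), and EZR, which encodes ezrin (-0.24 ± 0.05). EZR was not called with total-count scaling (-0.10, adjusted p = 0.0624). At 150 nM none of the 15 tested targets rose and GSTP1 fell (-0.24 ± 0.06), where 0.954% of all tested genes were called higher and 0.318% lower. The GSTP1 call was lost without DMSO replicate 2 (-0.16, adjusted p = 0.365), 150 nM replicate 2 (0.113), 150 nM replicate 3 (0.121) or 500 nM replicate 2 (0.0518), and in the fit of 6 libraries (0.127). Many of these genes answer to other factors as well, and no binding was measured here.

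Genes whose pattern over the 9 libraries was most like that of a member were sought by the root mean square difference in log2 CPM after subtracting each gene's DMSO mean. For JUN they were the zinc exporter gene SLC30A1 (0.17, Pearson r = 0.993), COL19A1 (0.22, 0.985), PCBP4 (0.23, 0.985) and NRARP (0.24, 0.986). For JUNB they were NFKBIA, which encodes the NF-kB inhibitor IκBα (0.07, 0.994), and DENND5A (0.08, 0.991), and for JUND KDM6B, an H3K27 demethylase gene (0.10, 0.993), and IER5 (0.13, 0.993). For BATF3 they were GDAP1L1 (0.34, 0.990) and TBC1D16 (0.36, 0.983), for BATF ZNF582 (0.18, 0.935) and GEMIN8P4 (0.19, 0.928). The low FOS genes had less close matches, FSCN1 (0.55, 0.972) and FZD7 (0.72, 0.9502) for FOS and LTA (0.71, 0.898) and SLC16A3 (0.73, 0.927) for FOSB. For FOSL2 they were MAN1C1 (0.36, 0.968) and ITGB3 (0.38, 0.958), and for FOSL1 GRIN3B (0.28, 0.879) and KIAA1875 (0.29, 0.858). The libraries form 3 groups, so r compares 3 group levels more than 9 independent points, and 735 of 12571 genes compared with JUN had an r above 0.95.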

How the data were processed

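Raw counts of reads per gene symbol were deposited for 9 OCI-Ly1 libraries, 1 column each, matched to samples by title. Subread, featureCounts 1.4.6, Bowtie2 2.2.6 and TopHat2 2.0.14 are listed, per the submitters' processing notes, beside the builds hg19 and mm10, with no role for any of them. The annotation and the use of strand in counting were not given in the sources used here. Reads of JUNB and HOOK2, FOSB and ERCC1, or FOSL2 and FLJ31356, which overlap on opposite strands, may not be separable. Table coordinates were not used. Transcript length and GC content came from GENCODE 29, where RefSeq transcripts had been planned, and promoters from RefSeq.

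edgeR 4.0.16 (R 4.3.3) filtered genes with filterByExpr (minimum count 10, minimum total 15), scaled by TMM and fitted a robust quasi-likelihood model to all 9 libraries with group as the factor. Standard errors are the unshrunk log2 fold change over the square root of F. Tests ran over 15089 genes. The fit was checked on simulated counts. Members, lists and tests were chosen with earlier results of these data known. Named genes are the 9 members and, per list, up to 4 called genes of the commoner direction and up to 2 of the other, taken by adjusted p, plus ATF2, ATF3, ATF7, JDP2, IRF4 and IRF8, and for each member its most alike genes (mean 1 CPM or more). Some genes of these lists are not reported here. MAPK8, MAPK9, MAPK10, BACH2, CREB1, CREM and HBEGF were named outside the rule. IL8 was matched as CXCL8. Alternatives were DESeq2 1.42.0, limma-voom (limma 3.58.1), other scalings and filters, a fit restricted to 6 libraries, a block for the replicate number, each library left out, GC trends removed (lowess span 0.3, genes with a transcript, 95.5% of those tested) and the 20 most abundant genes left out. Counts carry no molecular identifiers, and depth limits the precision of FOS, FOSB and FOSL2.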

Additional observations from a re-analysis of the deposited data

How the results depend on the processing

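The 16 calls of AP-1 members at 500 nM, against DMSO or against 150 nM, each had up to 19 alternative fits. All 302 values that these gave kept the direction and side of the threshold. They share the same 9 libraries and are not independent. FOS and FOSL2, whose calls are among the 16, passed the low-count filter only through the 500 nM libraries. FOSL1 and FOSL2 did not pass a filter of 1 CPM in 3 libraries, so 7 members were called higher there. The number of members called at 150 nM against DMSO, 1 with all libraries, was 0 in the fit of the 6 libraries compared and by limma-voom, and 0 to 1 with 1 library left out. The number of genes called at 150 nM, 192, was 320 with no filter, 361 with GC trends removed, 101 in the fit of 6 libraries, 291 by DESeq2 and 98 to 545 with 1 library left out (98 without 150 nM replicate 2, 107 without DMSO replicate 2 and 545 without 150 nM replicate 1). The cause was not tested.

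Members that were not called changed sign in some fits. FOSL1 at 500 against 150 nM was 0.0523 with total-count scaling and -0.37 to 0.16 with 1 library left out. At 150 nM against DMSO the log2 fold change with 1 library left out ran from -0.55 to 1.35 for FOS, from -0.21 to 1.11 for FOSL2 and from -0.29 to 0.16 for BATF. The labels do not say that replicate numbers pair libraries. Between DMSO and 150 nM, same-numbered libraries had correlations of their deviations from group means of 0.0126 to 0.104, and 6 of 6 libraries matched their own number best. These matches are not independent, since each correlation counts for both of its libraries and deviations within a group are tied to each other. DMSO replicate 2 had 0.0126 with 150 nM replicate 2 and 0.00814 with 150 nM replicate 3. The matches are at most a weak hint of pairing, from the data and not from the design. In the comparisons with 500 nM these correlations were -0.0525 to 0.00362, and 0 of 6 libraries matched their own number best in each. With the replicate number as a block 308 genes were called at 150 nM, and the block changed no call of a member. Low counts limit what can be said of FOS, FOSB and FOSL2 at 150 nM.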

Other observations

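The nearest tested neighbours of the 9 AP-1 genes along the chromosome, in RefSeq order, were also read at 500 nM against DMSO. Of 17 such neighbours, 7 were called higher, 2 lower and 8 were not called, where 26.3% of all tested genes were called higher and 25.6% lower. Log2 fold changes of the neighbours ran from -0.82 to 5.95, with a median of -0.03. The highest was ATF3, the nearest tested gene on one side of BATF3, with 3 untested genes between. NSL1, on the other side with 1 untested gene between, was not called (-0.03). JDP2 lies between FOS and BATF and rose by 0.28, less than either. The neighbours of JUN, MYSM1 (-0.09) and FGGY (-0.17), and those of JUND, PDE4C (-0.22) and LSM4 (-0.07), were not called. PRDX2 beside JUNB fell (-0.47) and RTN2 beside FOSB rose (0.79).

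The genes that overlap members on the opposite strand had their own values. HOOK2, which overlaps JUNB, had 11.5, 12.4 and 11.5 CPM at 500 nM and 8.88, 10.6 and 7.56 CPM in DMSO, and rose by 0.39 on the log2 scale. ERCC1, which overlaps FOSB, had 51.1, 49.7 and 48.0 CPM at 500 nM and 36.5, 29.3 and 35.9 CPM in DMSO, and rose by 0.54. ERCC1 had far more counts than FOSB in every library, and its part in the FOSB counts was not tested. FLJ31356, which overlaps FOSL2, had at most 0.211 CPM in any library.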
